A study of Mus musculus with 9 samples.

Results

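The 32 genes described here encode chaperones, folding enzymes, stress sensors and degradation factors of the endoplasmic reticulum (ER). They were chosen by gene name from the 32761 genes of the deposited table, and all 32 were found there. RNA was sequenced from tumours grown in mice from Hepa1-6-luc cells, a mouse hepatoma line that carries luciferase. Tumours were taken on day 14. The study had 6 groups of mice, and 3 of these groups were sequenced, with 3 libraries each. The first was the Control, for which the labels name no agent. The second, Lenvatinib+anti-PD1, received free lenvatinib, an inhibitor of the VEGF and FGF receptor kinases, every 3 days by tail vein. It also received an antibody against PD1, an inhibitory receptor of T cells, at 50 µg per injection every 4 days. The third, Co+Len@OVA+anti-PD1, received the same antibody with a drug-loaded nanocluster at 2 mg/mL every 3 days. What Co stands for is not stated in the labels, which give the free drug only as matched to the nanocluster. No sequenced group received the drug, the particle or the antibody alone, so their contributions cannot be told apart. All groups carried tumours of the same cell line, and no age, sex or strain of the mice is stated in the labels.

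Secreted and membrane proteins fold in the ER, where the Hsp70-type chaperone BiP (Hspa5) works with co-chaperones, lectin chaperones and disulfide isomerases. Proteins that fail to fold are moved back to the cytosol and degraded, a route called ER-associated degradation. When unfolded proteins accumulate, the sensors IRE1 (Ern1), ATF6 (Atf6) and PERK (Eif2ak3) start the unfolded protein response. ATF6 and the spliced form of XBP1 raise the transcription of chaperone and degradation genes, and PERK lowers translation and favours the factors ATF4 and CHOP. Hepatocytes, hepatoma cells and plasma cells secrete much protein and are rich in this machinery. Splicing, cleavage and phosphorylation of the sensors were not measured, and the values below are transcript levels.

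Afp, the alpha-fetoprotein of hepatoma cells, was at 368 to 439 FPKM in the Control libraries, 339 to 385 in Lenvatinib+anti-PD1 and 233 to 240 in Co+Len@OVA+anti-PD1. Afp is 1 of 6 hepatoma markers, which did not all change alike and are given with the other cell type markers. FPKM are fragments scaled by transcript length and library size, and the values of a library added up to between 331611 and 372794. In each group, library 3 lay between the other libraries for most genes that differed over 4-fold between those. This held for 94.86% of 350 such genes in the Control group, for 97.54% of 284 with free lenvatinib and for 97.48% of 278 with the nanocluster. Among the 32 members, library 3 lay between the others for 26 in Control, 8 with free lenvatinib and 26 with the nanocluster. Whether the 3 libraries of a group are independent was not tested, so p-values measure only the spread between these libraries. The counts of members that passed, and the values of some members, are also given from libraries 1 and 2 alone. Calls of other single genes are not. Control library 1 stood apart, with 725 genes lower by over 2-fold than in both other Control libraries. In bulk tumour RNA, fewer cells of a type and less RNA per cell cannot be told apart.

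The promoters of 7 members are shown because they hold the letters of ER stress elements. They are the 6 members with an ERSE that changed most with free lenvatinib, and Herpud1, so the choice rests on the outcome. The ER stress response element (ERSE) has the letters CCAAT and CCACG with 9 bases between them. It is bound by ATF6 together with NF-Y, and ERSE-II has ATTGG and CCACG with 1 base between them. The searches also covered the XBP1 element TGACGTGG and the ATF4 element TGATGCAA, all on both strands, in the 250 bases before the start of each RefSeq gene (GRCm38.p6). The XBP1 element read on the other strand contains CCACG, which both ERSE forms share. Promoters were found for 26 of the 32 members. Of these 26, 9 held an ERSE, namely Hspa5, Hsp90b1, Calr, Canx, Creld2, Derl3, Dnajc3, Pdia6 and Syvn1, against 37 of 32851 promoters overall (0.113%). ERSE-II and the ATF4 element were each found in Herpud1 alone among the members, against 0.0304% and 0.791% of all promoters. The XBP1 element was found in 0 member promoters and in 0.563% of all. The members not searched were Atf6, Hyou1, Hspa13, Manf, Ostc and Derl1. These elements are known from ER stress genes, the kind of gene chosen here. The shares therefore describe the members and are not an independent test. A match describes letters and is not evidence of binding. The lines below give the 250 bases 5′ to 3′ along the gene, with the matched letters in capitals. CGTGG before ATTGG is an ERSE on the opposite strand. The Hspa5 window is chr2:34771840-34772089 on the plus strand, and its ERSE begins 65 bases before the start.
Hspa5: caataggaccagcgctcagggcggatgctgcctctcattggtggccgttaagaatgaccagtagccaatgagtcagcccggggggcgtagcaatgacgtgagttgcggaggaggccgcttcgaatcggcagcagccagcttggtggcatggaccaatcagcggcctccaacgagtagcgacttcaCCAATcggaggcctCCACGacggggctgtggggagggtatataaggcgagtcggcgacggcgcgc
The Hsp90b1 window is chr10:86705445-86705694 on the minus strand, with ERSE letters beginning 212 bases and, on the opposite strand, 107 bases before the start.
Hsp90b1: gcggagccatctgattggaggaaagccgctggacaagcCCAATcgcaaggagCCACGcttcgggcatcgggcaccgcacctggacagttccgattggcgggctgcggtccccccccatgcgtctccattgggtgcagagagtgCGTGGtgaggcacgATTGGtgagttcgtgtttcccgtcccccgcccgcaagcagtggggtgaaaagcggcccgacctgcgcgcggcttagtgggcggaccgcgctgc
The Calr window is chr8:84846932-84847181 on the minus strand, with an opposite-strand match beginning 162 bases before the start.
Calr: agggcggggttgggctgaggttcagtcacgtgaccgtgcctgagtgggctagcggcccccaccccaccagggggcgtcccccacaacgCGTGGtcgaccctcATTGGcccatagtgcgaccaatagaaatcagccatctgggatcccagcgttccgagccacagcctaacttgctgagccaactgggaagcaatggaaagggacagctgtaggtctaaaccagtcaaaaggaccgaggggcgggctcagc
The Creld2 window is chr15:88819396-88819645 on the plus strand, with an opposite-strand match beginning 126 bases before the start.
Creld2: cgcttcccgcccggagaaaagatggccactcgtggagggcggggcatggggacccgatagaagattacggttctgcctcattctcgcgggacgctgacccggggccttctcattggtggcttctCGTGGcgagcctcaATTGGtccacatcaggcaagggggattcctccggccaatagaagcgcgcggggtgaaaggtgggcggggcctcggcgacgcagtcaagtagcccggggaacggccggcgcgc
The Derl3 window is chr10:75893148-75893397 on the plus strand, with an opposite-strand match beginning 156 bases before the start.
Derl3: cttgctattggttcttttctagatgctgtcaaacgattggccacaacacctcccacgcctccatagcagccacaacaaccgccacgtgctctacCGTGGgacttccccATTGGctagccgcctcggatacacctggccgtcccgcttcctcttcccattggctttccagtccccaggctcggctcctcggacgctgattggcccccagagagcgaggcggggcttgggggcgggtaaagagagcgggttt
The Syvn1 window is chr19:6046326-6046575 on the plus strand, and its ERSE begins 44 bases before the start.
Syvn1: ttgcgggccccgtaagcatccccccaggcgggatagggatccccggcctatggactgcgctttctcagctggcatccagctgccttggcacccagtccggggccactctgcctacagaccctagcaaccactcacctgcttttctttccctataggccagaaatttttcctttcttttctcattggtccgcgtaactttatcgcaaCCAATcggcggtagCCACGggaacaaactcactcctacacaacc
The Herpud1 window is chr8:94386179-94386428 on the plus strand. Its ERSE-II begins 52 bases before the start and its ATF4 element, on the opposite strand, 112 bases before it.
Herpud1: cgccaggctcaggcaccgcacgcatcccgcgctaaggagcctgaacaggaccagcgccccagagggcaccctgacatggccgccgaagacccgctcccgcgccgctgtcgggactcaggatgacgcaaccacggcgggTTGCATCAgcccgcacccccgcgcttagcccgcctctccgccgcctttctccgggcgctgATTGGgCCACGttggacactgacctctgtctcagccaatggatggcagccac

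**Figure D1:**
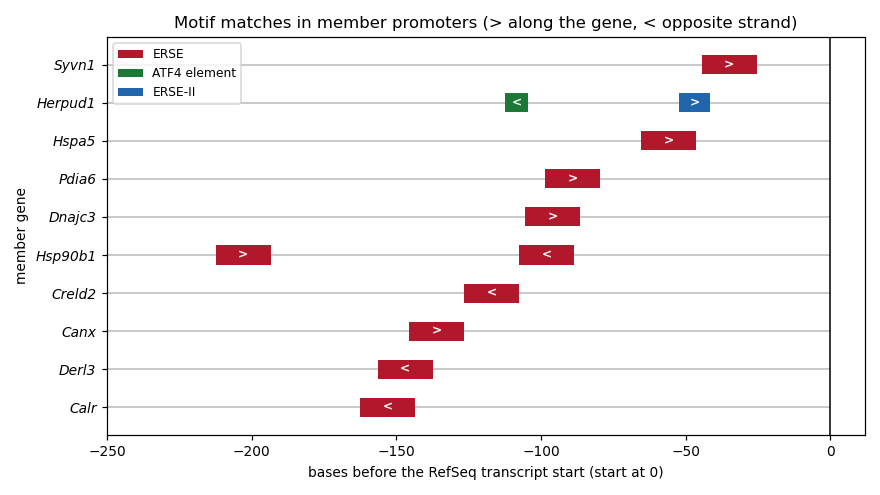
Positions of the exact motif matches in the member promoters that hold any. The x axis gives bases before the RefSeq start at 0, each row is a gene, and the arrow gives the strand relative to the gene. The ERSE matches lie between 212 and 26 bases before the start.

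Expression of the members spanned a wide range. In the Control tumours the mean level ran from 0.918 ± 0.0311 FPKM (SD, n = 3) for Derl3 to 543 ± 32.7 for P4hb, a disulfide isomerase that is also a subunit of prolyl 4-hydroxylase. The same 5 members had means over 100 FPKM in every group. They were P4hb, Hspa5, Hsp90b1, Pdia3 and Calr, the abundant soluble proteins of the ER lumen. In Control, P4hb was followed by Hspa5 at 319 ± 58.3 FPKM, then Hsp90b1 at 257 ± 4.36, Pdia3 at 254 ± 8.77 and Calr at 206 ± 2.27. Hsp90b1 and Pdia3 were closer than their spread. In Lenvatinib+anti-PD1, Hspa5 stood last of the 5, at 119.5 ± 3.78 FPKM. In Co+Len@OVA+anti-PD1 it was level with Hsp90b1, at 198 ± 8.46 against 197 ± 2.62, and Calr stood above both at 246 ± 12.8. Together the members took 0.679% to 0.698% of all FPKM in the Control libraries. The share was 0.468% to 0.499% with free lenvatinib and 0.611% to 0.656% with the nanocluster, so the 3 groups did not overlap. Mitochondrially encoded genes took 11.1% to 13.2% of all FPKM in Control, 16.3% to 17.9% with free lenvatinib and 12.3% to 12.8% with the nanocluster. With FPKM rescaled without those genes, 9 members passed as lower with free lenvatinib in place of 12, and Ssr1 no longer passed between the treatments.

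With free lenvatinib and anti-PD1, the ER machinery was lower than in Control wherever a member passed the test. Of the 32 members, 12 fell and 0 rose, against 9.87% lower and 13.8% higher, together 23.7%, of the 15353 genes tested (limma on log2(FPKM + 0.5), adjusted p under 0.05). The largest falls were in BiP (Hspa5), Herpud1 and Derl3. The other 9 were P4hb, Sdf2l1, Creld2, Hsp90b1, Atf6, Manf, Calr, Syvn1 and Hspa13. Derl3 averaged 0.331 FPKM with free lenvatinib, under the mean of 0.5 FPKM needed for testing, which it met through the other groups. The median log2 fold change was -0.24 over the members and 0.05 over all genes tested. With libraries 1 and 2 alone 0 members passed, where 33 genes passed as higher and 20 as lower in all. In that fit 9 members had an unadjusted p under 0.05, and all 12 kept the direction. Libraries 1 and 2 are among those that gave the calls. A kept direction, here and in the comparisons below, is therefore not independent support. Leaving out any single library kept 9 of the 12. Hspa13, Sdf2l1 and Atf6 missed the threshold in all of those fits except the fit without Control library 1, in which 18 members passed. In that fit the lower calls over all genes rose as well, from 1516 to 2679.

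With the nanocluster and anti-PD1, the members split by gene. Relative to the same Control libraries, 7 rose and 5 fell, against 20.9% higher and 12.7% lower, together 33.6%, of all genes tested. The share of members that passed was thus near that of all genes. The rises were in Sdf2l1, Dnajb11, Creld2, Hyou1, Hspa13, Calr and Derl2, and the falls in Herpud1, Hspa5, P4hb, Ssr1 and Hsp90b1. The median log2 fold change was 0.09 over the members and 0.13 over all genes. Median-of-ratios scaling brought the median of all genes to 0.001 and turned the split of all calls from 3209 higher and 1946 lower to 2060 higher and 2817 lower. Under that scaling 5 members were higher and 5 lower, and Calr (adjusted p = 0.382) and Derl2 no longer passed. With libraries 1 and 2 alone 0 members passed, where 17 genes passed as higher and 63 as lower in all. In that fit 10 members had an unadjusted p under 0.05. All 12 kept the direction. Leaving out any single library kept 11 of the 12, and Derl2 missed the threshold in 5 of 9 such fits.

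Between the treatments, 16 of the 32 members passed, and 16 did not. Of the 32, 15 were higher and 1, Ssr1, was lower in Co+Len@OVA+anti-PD1 than in Lenvatinib+anti-PD1, against 17.3% higher and 12% lower, together 29.4%, of all genes tested. The median log2 difference was 0.31 over the members and 0.07 over all genes. Median-of-ratios scaling turned the split of all calls from 2657 higher and 1850 lower to 1991 higher and 2318 lower, and left 12 members higher and 1 lower. For 23 members every nanocluster library was above every free lenvatinib library, against 34.3% of all genes, and for 2 every one was below, against 20.4%. Sdf2l1 and Creld2 passed with libraries 1 and 2 alone, in which 68 genes passed as higher and 297 as lower in all. All 16 kept the direction in that fit. Leaving out any single library kept 10 of the 16. Dnajb9, Pdia3, Pdia5, Edem1, Syvn1 and Ssr1 each missed the threshold in at least 1 of those fits. Without library 3 of Lenvatinib+anti-PD1, or without library 3 of Co+Len@OVA+anti-PD1, 10 members passed. Calls over all genes fell in these fits too, to 1391 higher and 1134 lower in the first and to 1218 higher and 1163 lower in the second.

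**Figure D2:**
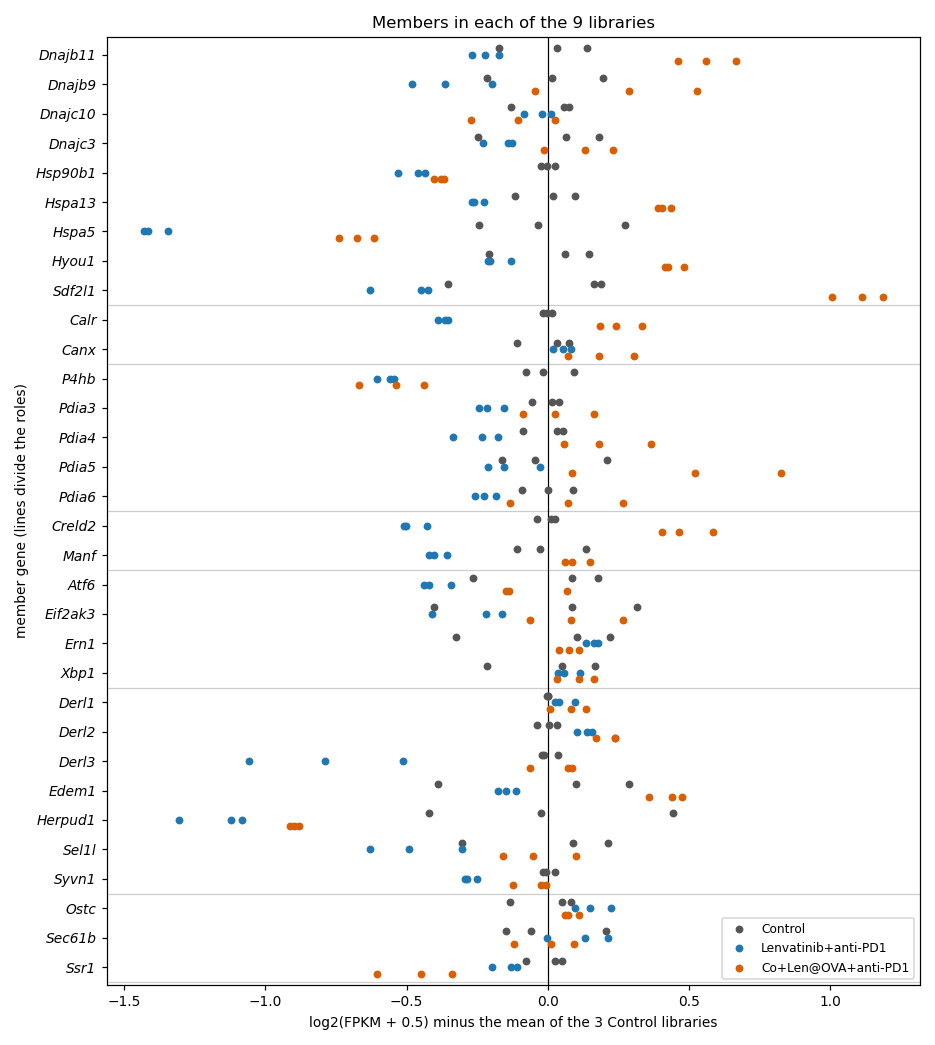
Level of each member in each of the 9 libraries, as log2(FPKM + 0.5) minus the mean of the 3 Control libraries on that scale. Each point is a library and grey lines divide the roles. The free lenvatinib points of Hspa5 and Herpud1 lie farthest to the left and the nanocluster points of Sdf2l1 farthest to the right.

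BiP, the product of Hspa5 (ENSMUSG00000026864), is the main Hsp70-type chaperone of the ER lumen and binds the sensors when they are at rest. Hspa5 was at 382, 267 and 309 FPKM in Control libraries 1 to 3. It was at 117, 118 and 124 FPKM in Lenvatinib+anti-PD1 and at 189, 206 and 198 in Co+Len@OVA+anti-PD1. The 3 groups did not overlap, and Control library 1 was the highest of all. The log2 fold change with free lenvatinib was -1.40 (SE 0.12, adjusted p = 0.000276), or 0.379 times the Control level. With the nanocluster it was -0.68 (SE 0.12, adjusted p = 0.00467), or 0.626 times. The nanocluster group exceeded the free lenvatinib group by 0.72 (SE 0.12, adjusted p = 0.00356). Libraries 1 and 2 alone gave -1.44, -0.69 and 0.75 for these 3 differences, with adjusted p = 0.0785, 0.148 and 0.143.

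Hsp90b1 (ENSMUSG00000020048) encodes GRP94, the Hsp90-type chaperone of the ER, which folds integrins and Toll-like receptors. It was at 262, 253 and 257 FPKM in Control, 187, 178 and 190 in Lenvatinib+anti-PD1, and 198, 199 and 194 in Co+Len@OVA+anti-PD1. All treated libraries were below all Control libraries, and the treated groups were close to each other without overlapping. Hsp90b1 fell in both comparisons with Control, by 0.47 with free lenvatinib (adjusted p = 0.000858) and 0.38 with the nanocluster (adjusted p = 0.00172). The treatments differed by 0.09 (SE 0.05, adjusted p = 0.216). Libraries 1 and 2 alone gave -0.495 and -0.37 against Control (adjusted p = 0.149 and 0.157).

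Sdf2l1 (ENSMUSG00000022769) encodes a small ER protein that works with BiP and its co-chaperone ERdj3, the product of Dnajb11. Sdf2l1 was at 9.89, 14.4 and 14.6 FPKM in Control, 8.09, 9.21 and 9.40 in Lenvatinib+anti-PD1, and 26.2, 29.8 and 28.2 in Co+Len@OVA+anti-PD1. The nanocluster libraries were far above the rest, and the free lenvatinib libraries lay just below Control library 1. Its log2 fold change was 1.10 with the nanocluster (SE 0.14, adjusted p = 0.00136) and -0.50 with free lenvatinib (SE 0.14, adjusted p = 0.0388). Between the treatments the difference was 1.60 (SE 0.14, adjusted p = 0.000181), or 3.04 times, and 1.64 with libraries 1 and 2 alone (adjusted p = 0.0299). Against Control those libraries gave 1.19 with the nanocluster (adjusted p = 0.0788) and -0.44 with free lenvatinib (adjusted p = 0.353). Hspa5 and Sdf2l1 thus moved apart in the nanocluster group, a pair chosen after their values were seen. Sdf2l1 stood at 2.59 to 5.38 FPKM per 100 FPKM of Hspa5 in Control, at 6.92 to 7.81 in Lenvatinib+anti-PD1 and at 13.85 to 14.45 in Co+Len@OVA+anti-PD1. A higher ratio than in Control was not particular to Sdf2l1. In the same order of groups, Dnajb11 stood at 3.94 to 7.04, 11.7 to 12.8 and 12.5 to 13.3. Hsp90b1 stood at 68.5 to 94.8, 151 to 160 and 96.75 to 105. Herpud1, at 26.2 to 33.4, 32.2 to 37.3 and 24.3 to 26.8, overlapped Control in both treated groups.

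Of the other 6 Hsp70-type proteins and BiP partners, 3 rose with the nanocluster and 1 fell with free lenvatinib. The shares of all genes tested were 20.9% and 9.87%. Dnajb11 was at 15.0 to 18.8 FPKM in Control and 23.6 to 27.3 with the nanocluster, a log2 fold change of 0.56 (adjusted p = 0.00313). It was at 14.1 to 15.0 with free lenvatinib, where it did not pass (-0.22, adjusted p = 0.112). Hyou1, a large Hsp70-like protein that exchanges the nucleotide of BiP, was at 13.6 to 17.6 FPKM in Control, 13.6 to 14.4 with free lenvatinib and 21.2 to 22.3 with the nanocluster. It rose with the nanocluster by 0.44 (adjusted p = 0.00833). Hspa13, another Hsp70-type protein of microsomes, was at 3.93 to 4.62, 3.48 to 3.59 and 5.78 to 5.99 FPKM in the same order of groups. Its 3 groups did not overlap, and its log2 fold changes were -0.25 with free lenvatinib (adjusted p = 0.0409) and 0.41 with the nanocluster (adjusted p = 0.00496). Dnajb9, which encodes the co-chaperone ERdj4, ranged from 7.39 to 9.99 FPKM in Control and from 8.37 to 12.7 with the nanocluster, so these groups overlapped. It was higher with the nanocluster than with free lenvatinib (0.60, adjusted p = 0.0264), a call lost in 4 of 9 fits that left out a library. Dnajc3, which encodes the co-chaperone p58IPK, had means of 15.1, 13.3 and 16.3 FPKM, and Dnajc10, a co-chaperone with reductase activity, 69.9, 68.3 and 64.5. Neither passed in any comparison.

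**Figure D3:**
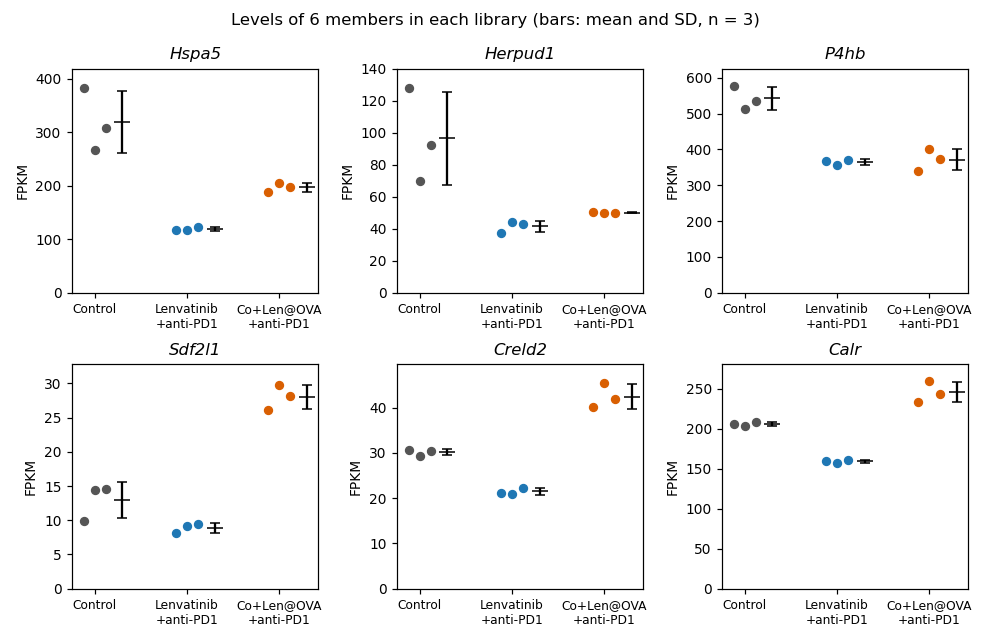
Level in FPKM of Hspa5, Herpud1, P4hb, Sdf2l1, Creld2 and Calr in each library, with the mean and SD of each group (n = 3) as bars, on linear axes that start at 0. Hspa5 drops to 117 to 124 FPKM with free lenvatinib, and Sdf2l1 reaches 26.2 to 29.8 with the nanocluster.

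Calr and Canx encode calreticulin and calnexin, the lectin chaperones that hold glycoproteins by their trimmed sugars. Calr (ENSMUSG00000003814) was at 205, 204 and 208 FPKM in Control, 159.8, 157 and 161 in Lenvatinib+anti-PD1, and 234, 259 and 244 in Co+Len@OVA+anti-PD1. The 3 groups were separate, with free lenvatinib lowest and the nanocluster highest. Calr fell by 0.37 with free lenvatinib (SE 0.06, adjusted p = 0.00337). With the nanocluster the log2 fold change was 0.25 (SE 0.06, adjusted p = 0.012), which did not pass in a fit of those groups alone (adjusted p = 0.0506). The treatments differed by 0.62 (SE 0.06, adjusted p = 0.000194). With libraries 1 and 2 alone the 3 values were -0.37, 0.27 and 0.64 (adjusted p = 0.23, 0.252 and 0.068). Canx had means of 78.1 ± 5.19, 80.9 ± 1.87 and 89.0 ± 7.22 FPKM in the same order of groups and did not pass in any comparison.

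Disulfide isomerases form and rearrange the disulfide bonds of folding proteins. P4hb (ENSMUSG00000025130), the most abundant member, was at 578, 514 and 536 FPKM in Control, 368, 356 and 371 in Lenvatinib+anti-PD1, and 341, 400 and 373 in Co+Len@OVA+anti-PD1. Both treated groups lay below Control and overlapped each other. P4hb fell by 0.57 with free lenvatinib (adjusted p = 0.00202) and by 0.55 with the nanocluster (adjusted p = 0.00188). The difference between the treatments was 0.02 (SE 0.08). Libraries 1 and 2 alone gave -0.59 and -0.56 against Control (adjusted p = 0.166 and 0.13). Pdia3, the partner of calnexin and calreticulin, was at 244 to 261 FPKM in Control, 214 to 228 with free lenvatinib and 239 to 284 with the nanocluster. Pdia4 was at 70.8 to 78.2, 59.6 to 66.5 and 78.3 to 97.1 FPKM, and Pdia5 at 10.6 to 13.9, 10.3 to 11.7 and 12.8 to 21.6. These 3 isomerases passed only between the treatments, by 0.24 for Pdia3, 0.45 for Pdia4 and 0.61 for Pdia5 (adjusted p = 0.0463, 0.00802 and 0.0368). The calls of Pdia3 and Pdia5 were each lost in 6 of 9 fits that left out a library. Pdia6, an isomerase that also acts on the sensors, was at 83.5 to 94.6, 74.4 to 78.3 and 81.0 to 107 FPKM and did not pass (0.29 between the treatments, adjusted p = 0.0616).

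Creld2 and Manf encode small proteins of the ER lumen that are induced by stress and can be secreted. Creld2 (ENSMUSG00000023272) was at 30.7, 29.4 and 30.4 FPKM in Control, 21.1, 21.02 and 22.3 in Lenvatinib+anti-PD1, and 40.1, 45.5 and 41.8 in Co+Len@OVA+anti-PD1. The 3 groups did not overlap. Its log2 fold change was -0.48 with free lenvatinib (SE 0.06, adjusted p = 0.00157) and 0.48 with the nanocluster (SE 0.06, adjusted p = 0.00117). Between the treatments Creld2 differed by 0.96 (SE 0.06, adjusted p = 3.06e-05), and by 1.00 with libraries 1 and 2 alone (adjusted p = 0.0241). Against Control those libraries gave -0.50 with free lenvatinib (adjusted p = 0.149) and 0.50 with the nanocluster (adjusted p = 0.111). Manf was at 25.6 to 30.5 FPKM in Control, 20.5 to 21.5 with free lenvatinib and 28.9 to 30.8 with the nanocluster. It fell by 0.39 with free lenvatinib (adjusted p = 0.00598), and with the nanocluster the change was 0.10 (adjusted p = 0.291).

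**Figure D4:**
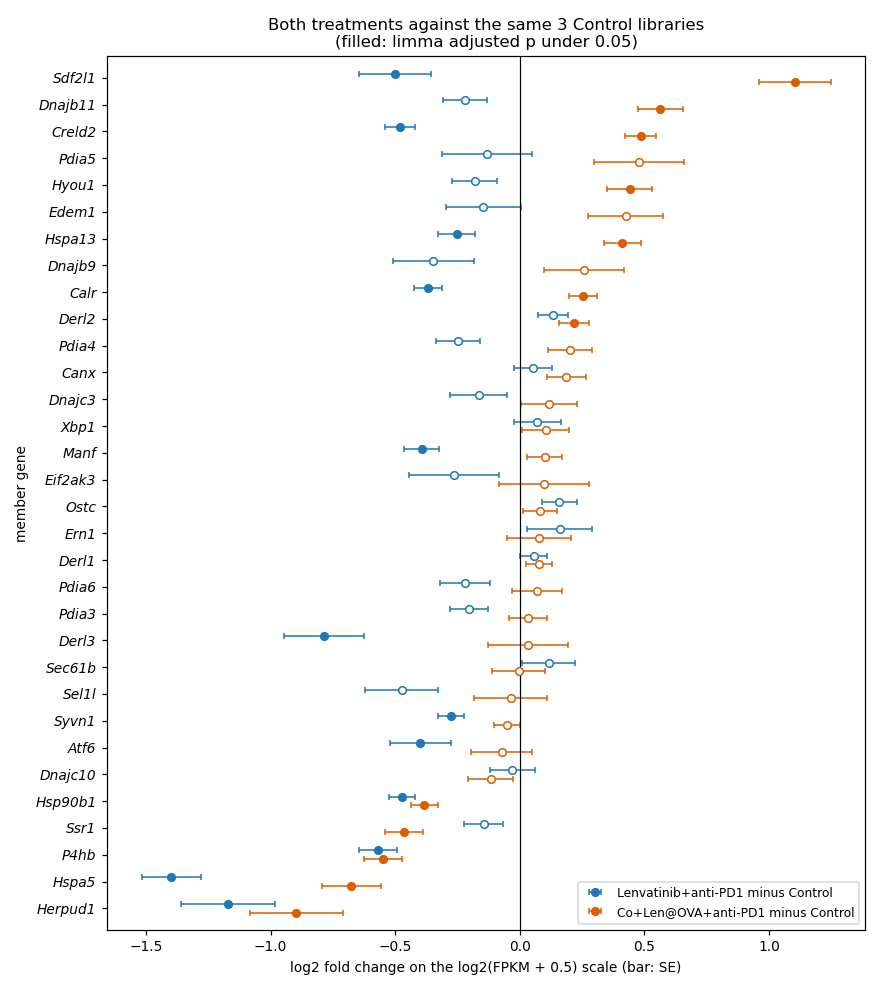
Log2 fold change of each member against Control on the log2(FPKM + 0.5) scale, with its SE as a bar, for Lenvatinib+anti-PD1 in blue and Co+Len@OVA+anti-PD1 in orange. Filled points have an adjusted p under 0.05, and both treatments are set against the same 3 Control libraries. Hspa5, Herpud1, P4hb and Hsp90b1 are filled on the left for both.

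Of the 3 sensor transcripts and Xbp1, only Atf6 passed, and in a single comparison. Of all genes tested, 23.7% passed with free lenvatinib, 33.6% with the nanocluster and 29.4% between the treatments. Ern1 (ENSMUSG00000020715) was at 3.70, 5.62 and 5.16 FPKM in Control, 5.39, 5.46 and 5.28 in Lenvatinib+anti-PD1, and 5.05, 4.91 and 5.18 in Co+Len@OVA+anti-PD1. Control library 1 alone was low, and Ern1 did not pass in any comparison. Eif2ak3 (ENSMUSG00000031668) was at 3.80, 6.59 and 5.55 FPKM in Control, 3.78, 4.397 and 4.59 with free lenvatinib, and 6.35, 4.95 and 5.53 with the nanocluster. It too was lowest of the Controls in library 1 and did not pass. Atf6 (ENSMUSG00000026663) was at 4.84, 6.78 and 6.31 FPKM in Control, 4.24, 4.30 and 4.57 with free lenvatinib, and 6.24, 5.29 and 5.35 with the nanocluster. The free lenvatinib libraries were below the other libraries. Atf6 fell with free lenvatinib by 0.40 (SE 0.12, adjusted p = 0.0482), and the value from libraries 1 and 2 alone was -0.39 (adjusted p = 0.395). Xbp1 (ENSMUSG00000020484), whose mRNA is spliced by IRE1, was at 46.2, 60.3 and 55.6 FPKM in Control, 56.0, 55.1 and 58.2 with free lenvatinib, and 55.0, 60.3 and 58.1 with the nanocluster. The groups overlapped, and the largest of its 3 log2 differences was 0.10 (SE 0.10).

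Herpud1 (ENSMUSG00000031770) encodes a membrane protein that gathers the degradation complex around the ubiquitin ligase HRD1. It was at 128, 69.8 and 92.3 FPKM in Control, 37.6, 44.0 and 42.8 in Lenvatinib+anti-PD1, and 50.7, 50.1 and 49.6 in Co+Len@OVA+anti-PD1. The Control libraries were spread widely, yet all stood above all treated libraries. Herpud1 fell by 1.17 with free lenvatinib (SE 0.19, adjusted p = 0.00407) and by 0.90 with the nanocluster (SE 0.19, adjusted p = 0.00933). With libraries 1 and 2 alone the log2 fold changes were -1.21 and -0.90 (adjusted p = 0.17 and 0.181). The treatments differed by 0.27 (adjusted p = 0.29).

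Derl3 (ENSMUSG00000009092), a derlin of the retrotranslocation channel that secretory cells express, was scarce. It was at 0.897, 0.903 and 0.953 FPKM in Control, 0.493, 0.320 and 0.181 in Lenvatinib+anti-PD1, and 0.990, 1.00 and 0.858 in Co+Len@OVA+anti-PD1. The free lenvatinib libraries were lowest, and the other groups overlapped. Derl3 fell by 0.79 with free lenvatinib (SE 0.16, adjusted p = 0.0107) and was higher by 0.82 with the nanocluster than with free lenvatinib (SE 0.16, adjusted p = 0.00773). Libraries 1 and 2 alone gave -0.63 and 0.73 for these differences (adjusted p = 0.281 and 0.203). Its mean with free lenvatinib, 0.331 FPKM, was under the mean of 0.5 FPKM needed for testing. Derl3 was tested because its level was higher in the other groups, so its calls are a description. At this level the pseudocount of 0.5 understates the differences.

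Among the other degradation genes, Syvn1, which encodes HRD1 itself, was at 16.4 to 16.9 FPKM in Control, 13.5 to 13.9 with free lenvatinib and 15.2 to 16.6 with the nanocluster. It fell by 0.28 with free lenvatinib (adjusted p = 0.00784). Sel1l, the partner of HRD1, was at 6.11 to 8.97, 4.78 to 6.12 and 6.82 to 8.25 FPKM in the same order of groups, and just missed the threshold with free lenvatinib (-0.47, adjusted p = 0.0509). Edem1, which delivers glycoproteins for degradation, was at 13.7 to 22.1, 15.9 to 16.6 and 23.2 to 25.3 FPKM. It passed only between the treatments, with a difference of 0.57 (adjusted p = 0.0246) that missed the threshold in 5 of 9 fits that left out a library. Derl2, another derlin, was at 4.403 to 4.66 FPKM in Control and 5.17 to 5.45 with the nanocluster, a rise of 0.22 (adjusted p = 0.0294), and at 4.91 to 5.12 with free lenvatinib. The derlin Derl1 was at 52.1 to 52.2, 53.1 to 55.9 and 52.4 to 57.4 FPKM and did not pass.

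None of the 3 genes of entry into the ER passed with free lenvatinib, where 23.7% of all genes tested passed. Sec61b, a subunit of the translocation channel, had means of 63.6 ± 8.37, 68.7 ± 5.17 and 63.2 ± 4.70 FPKM in Control, with free lenvatinib and with the nanocluster. Ostc, a subunit of the oligosaccharyltransferase, had means of 34.0 ± 2.74, 38.0 ± 1.72 and 35.9 ± 0.688. Neither passed in any comparison. Ssr1, a subunit of the translocon-associated protein complex, was at 20.05 to 21.9, 18.4 to 19.6 and 13.7 to 16.6 FPKM. It fell by 0.46 with the nanocluster (adjusted p = 0.00354), and was the only member that passed as lower with the nanocluster than with free lenvatinib (-0.32, adjusted p = 0.0173).

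**Figure D5:**
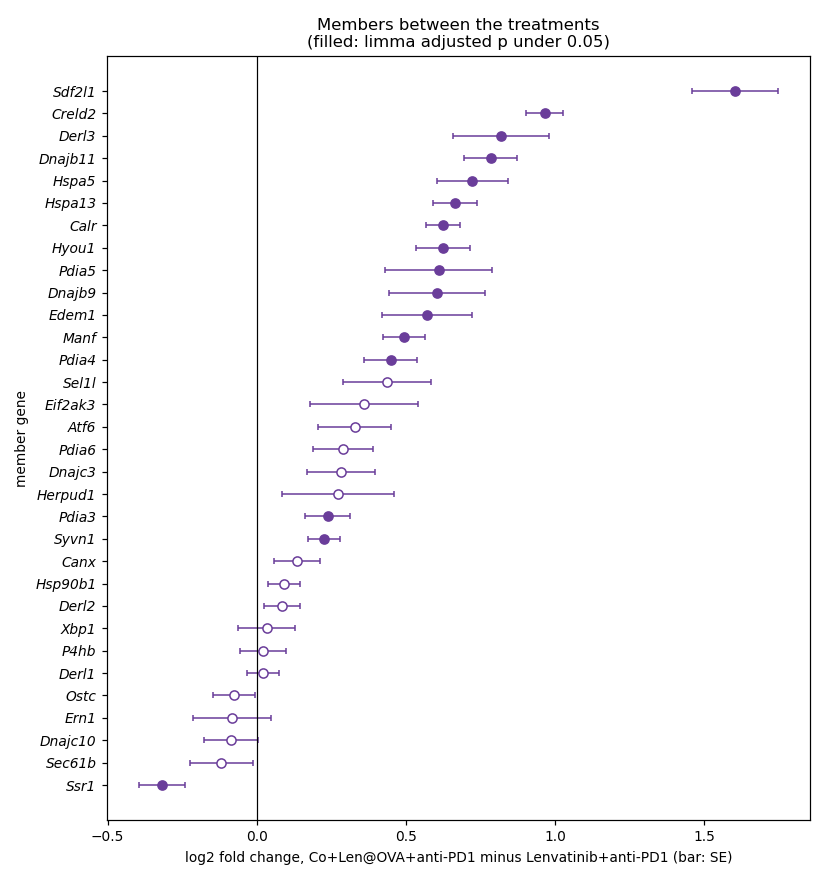
Log2 difference of each member between Co+Len@OVA+anti-PD1 and Lenvatinib+anti-PD1, with its SE as a bar. Filled points have an adjusted p under 0.05. Sdf2l1 is at 1.60, Creld2 at 0.96 and Ssr1 at -0.32.

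Members with and without an ERSE in the searched window overlapped in their changes. All 7 printed promoters belong to members that fell with free lenvatinib, which follows from how they were chosen and is not a result. In that comparison, where 9.87% of all genes tested fell, 6 of the 9 members with an ERSE fell, with a median log2 fold change of -0.37, and 3 of the 17 without fell, with a median of -0.20. With the nanocluster, 2 of the 9 rose and 2 fell, and 3 of the 17 rose and 3 fell, against 20.9% and 12.7% of all genes. Between the treatments 5 of 9 and 7 of 17 were higher, against 17.3% of all genes, with medians of 0.29 and 0.27. Herpud1, which has an ERSE-II in place of an ERSE, fell with Hspa5, and Sdf2l1, with the largest rise, held none of the searched letters in its window. These counts are a description, and the share of changed genes was not tested by motif.

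Among the targets of PERK signalling, Ddit3 and Ddit4 fell with both treatments, and Trib3 differed between them. In the PERK, ATF4 and CHOP branch, 18 genes were tested. With free lenvatinib 2 of them rose and 7 fell, against 13.8% and 9.87% of all genes tested. Ddit3, which encodes CHOP, was at 47.8, 19.9 and 29.8 FPKM in Control, 9.52, 10.1 and 9.72 with free lenvatinib, and 10.8, 9.11 and 10.5 with the nanocluster. Its levels in Control were highest in library 1, as for Hspa5 and Herpud1. The log2 fold changes of Ddit3 were -1.59 and -1.54 (adjusted p = 0.00464 and 0.00407). Ddit4, an inhibitor of mTORC1, fell by 1.74 and 1.88 on the log2 scale in the same comparisons. Fgf21, a hormone gene induced by ATF4, rose with free lenvatinib by 2.19, from 0.136 to 0.242 FPKM in Control to 2.42 to 2.92, and Chac1, a glutathione-degrading enzyme, by 1.31. Fgf21 averaged 0.193 FPKM in Control and 0.128 with the nanocluster, under the mean of 0.5 FPKM needed for testing. It was tested only through its level with free lenvatinib, so its calls are a description. With the nanocluster 1 gene of this branch rose, Nupr1 by 0.97, and 6 fell, among them Trib3 by 0.93. Of all genes tested, 20.9% rose and 12.7% fell in that comparison. Between the treatments 1 was higher and 4 were lower with the nanocluster, against 17.3% and 12% of all genes tested. The 4 were Fgf21 (-2.34), Trib3 (-1.30), Gdf15 (-0.91) and Asns (-0.56).

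The counts of the next lists stand beside these shares of all genes tested. With free lenvatinib 13.8% rose and 9.87% fell, and with the nanocluster 20.9% rose and 12.7% fell. Between the treatments 17.3% were higher and 12% lower with the nanocluster. A count near these shares is not particular to its list. In the list of other ER folding enzymes, 20 genes were tested. With free lenvatinib 1 rose, Cnpy2 by 0.44, and 3 fell, Txndc11 by 0.55, Erp44 by 0.42 and Ppib by 0.35. With the nanocluster 8 rose and 2 fell, and the rises were led by Rcn1 (1.34), Cnpy3 (0.60), Fkbp2 (0.52) and Uggt1 (0.50). Uggt1 is the glucosyltransferase that returns unfolded glycoproteins to calnexin and calreticulin. Between the treatments 5 were higher and 2 lower with the nanocluster, including Erp44 (0.46), which retains unassembled immunoglobulin M. Of 19 other degradation genes, 0 rose and 7 fell with free lenvatinib, led by Erlec1 (-0.48) and Ube2g2 (-0.33). With the nanocluster 3 rose and 6 fell. Between the treatments 6 were higher and 2 lower with the nanocluster. Against Control, Edem3 rose by 0.72 and Edem2 fell by 0.52, both mannosidase-like proteins that act as Edem1 does. Of 28 other genes of translocation and N-glycosylation, 1 rose and 7 fell with free lenvatinib, led by Stt3b (-0.56), a catalytic oligosaccharyltransferase subunit, and Tram1 (-0.56). With the nanocluster 5 rose and 7 fell, and between the treatments 10 were higher and 1 lower with the nanocluster, led by Magt1 (0.59) and Srprb (0.45). Of 18 other signalling genes tested, 2 rose and 1 fell with free lenvatinib, and 5 rose and 4 fell with the nanocluster. Between the treatments 2 were higher and 4 lower with the nanocluster. Creb3l3, a liver relative of ATF6, had means of 2.35, 6.02 and 0.393 FPKM in Control, free lenvatinib and nanocluster. It rose by 1.20 with free lenvatinib and fell by 1.67 with the nanocluster. Creb3l1, a relative that acts on collagen secretion, fell by 1.49 with the nanocluster.

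Low oxygen and low glucose are also known to induce BiP and an ER oxidase. Of 16 genes of that response, 0 rose and 13 fell with free lenvatinib, and 1 rose and 8 fell with the nanocluster. The shares of all genes tested were 13.8% and 9.87% with free lenvatinib, and 20.9% and 12.7% with the nanocluster. Ndrg1 fell by 1.17 and 1.29 and Bnip3 by 1.07 and 1.03 in these comparisons, and Adm fell by 1.83 with free lenvatinib. Ero1l, the oxidase that recharges disulfide isomerases and a gene of both this list and the PERK list, fell by 0.75 and 0.64. Of 12 heat shock genes of the cytosol and mitochondria, 4 rose and 0 fell with free lenvatinib, and 8 rose and 0 fell with the nanocluster, led there by Hsph1 (2.33), Hspa1a (2.12) and Hspa1b (1.94). Between the treatments, 7 of the 12 heat shock genes were higher and 0 lower with the nanocluster. Of the 16 genes of low oxygen and glucose, 5 were higher and 1 lower in that comparison. The shares of all genes tested were 17.3% and 12%. The part of both lists in the members' changes was not tested.

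Cell type markers differed between the groups as well. Of all genes tested, 13.8% rose and 9.87% fell with free lenvatinib, and 20.9% rose and 12.7% fell with the nanocluster. Between the treatments 17.3% were higher and 12% lower with the nanocluster. The 12 plasma cell markers, of which 10 were tested, summed to 121 to 137 FPKM in Control, 73.3 to 95.0 with free lenvatinib and 326 to 340 with the nanocluster. With free lenvatinib 0 of these rose and 2 fell, with the nanocluster 6 rose and 1 fell, and between the treatments 6 were higher and 0 lower with the nanocluster. The 18 hepatocyte markers summed to 6837, 2950 and 4328 FPKM in the Control libraries, 4621 to 4885 with free lenvatinib and 922 to 1240 with the nanocluster, in which all 18 fell. Control library 1 was the highest of the Controls for this sum, for Hspa5 and for Herpud1. It was the lowest of the Controls for other members, among them Sdf2l1, Hyou1, Edem1, Eif2ak3, Ern1 and Xbp1. Skeletal muscle markers summed to 37.3, 5438 and 2165 FPKM in the free lenvatinib libraries and to at most 56.5 elsewhere. The part of muscle RNA in the level of Hspa5, at 117, 118 and 124 FPKM in those 3 libraries, was not tested, nor for other members. T cell markers summed to 19.6 to 87.4 FPKM in Control, 66.3 to 71.4 with free lenvatinib and 168 to 242 with the nanocluster, and macrophage markers to 308 to 1348, 466 to 558 and 1834 to 2155. The 8 neutrophil markers summed to 157.5 to 168 FPKM in Control, 43.2 to 61.0 with free lenvatinib and 93.9 to 171 with the nanocluster. With free lenvatinib 0 of them rose and 6 fell, and 5 were higher and 1 lower with the nanocluster than with free lenvatinib. The 6 hepatoma markers, Afp among them, summed to 763.5 to 864 FPKM in Control, 753 to 794 with free lenvatinib and 494.5 to 554 with the nanocluster. With free lenvatinib 0 of the 6 rose and 1 fell, and with the nanocluster 0 rose and 4 fell. Between the treatments 0 were higher and 3 lower with the nanocluster. Their log2 fold changes ran from -0.58 to 2.35 with free lenvatinib and from -0.76 to 0.38 with the nanocluster. Fibroblast markers summed to 284 to 502, 248 to 593 and 381 to 558 FPKM in Control, free lenvatinib and nanocluster. Endothelial markers summed to 7.08 to 26.6, 11.97 to 23.8 and 26.5 to 50.7, and adipocyte markers to 0.788 to 9.49, 44.6 to 546 and 35.5 to 208. None of these markers was listed at 0 in all 3 libraries of a group. Their part in the members' differences was not tested.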

How the data were processed

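Messenger RNA from tumours was sequenced in 9 libraries, 3 in each of 3 groups. The authors deposited FPKM per gene, per the file header. Per the submitters' processing notes, the tools included StringTie, fastp and edgeR (no versions stated). Aligner and genome build: not given in the sources used here. Whole fragments were not recovered from the FPKM, at 16.46% to 22.67% of low values within 0.05 of a whole number at best, so the depth is unknown and no counting intervals are given. Genes were kept from a mean of 0.5 FPKM upwards, 15353 in all with all 32 members among them. They were fitted with limma 3.58.1 in R 4.3.3 (trend and robust empirical Bayes) on log2(FPKM + 0.5), all 9 libraries in a single fit with 6 residual degrees of freedom. Fits of libraries 1 and 2 alone had 3. P-values were Benjamini-Hochberg adjusted over all genes tested, with a threshold of 0.05. Folds are on the log2(FPKM + 0.5) scale, which understates the change of low genes.

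The members and all lists were chosen with earlier results of these data known. Values in every library are given for the 3 members with the largest absolute log2 fold change in each comparison and for Hspa5, Hsp90b1, Calr, Xbp1, Atf6, Ern1 and Eif2ak3; P4hb and Ddit3 were added after their values were seen. In each comparison up to 4 leading genes of each other list are named; Ero1l and Afp were named after their values were seen. Ero1l and Ero1lb were matched by these older symbols. Promoters are RefSeq's (GRCm38.p6); Herpud1's was added after the search. A planned count of protein ends was not run. The fits were tested on simulated data.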

Additional observations from a re-analysis of the deposited data

How the results depend on the processing

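Members passing numbered 12, 12 and 16 for free lenvatinib against Control, nanocluster against Control and nanocluster against free lenvatinib. With libraries 1 and 2 of each group only they were 0, 0 and 2, and 2, 1 and 1 with a 2-fold minimum. In fits with 1 library left out the counts were 9 to 18, 11 to 14 and 10 to 21. Other pseudocounts, filters, scalings, variance models and fits of the compared groups gave 9 to 16, 10 to 13 and 13 to 21, all within 1.5 times. Correlations of the deviations from the group means were -0.248 to 0.079 for same-numbered libraries and -0.187 to 0.244 for different-numbered ones. With 3 libraries a group these values cannot decide whether the numbers pair the samples. With the replicate block 10, 11 and 13 passed. No call of a member changed its sign under any of these settings, which reuse the libraries that gave the calls. Where calls were lost, the cause was not tested. Fits that leave libraries out also have fewer samples, and the part of this was not tested either. Derl3 had no value with a filter at a mean of 2 FPKM. The 3 libraries a group limit the precision, and at low levels such as that of Derl3 the unknown depth adds to this.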
